A study of Mus musculus with 20 samples.

Results

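Bisphenol A (BPA), the building block of polycarbonate plastics, which binds estrogen receptors, was given once to ovariectomized mice, and uterine transcripts were measured 24 h later against uteri of mice that received only the vehicle. The comparison used 6 of the 20 arrays of the series, 3 BPA 24 h arrays and 3 vehicle arrays, chosen by their titles. All were C57bl6/J females at least 10 weeks old, rested for 10 to 14 days after removal of the ovaries. They were injected under the skin with 100 µl of sesame oil, alone (vehicle, labelled as collected at 24 h) or carrying 750 µg BPA, and RNA of 1 uterus was hybridized per array. Whole uterus was used, so fewer cells of a type and less RNA per cell cannot be told apart. Of 41174 probes on the array, 31034 exceeded background clearly on all 3 arrays of one group or of both, and 31031 of these had the values needed for the test.

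In an ovariectomized uterus the epithelium is at rest. Estradiol (E2) acting through estrogen receptor α brings an early wave of transcription, with immediate early genes, growth factors and fluid uptake, and then a late wave in which epithelial cells replicate their DNA and divide. DNA replication genes are read mostly around S phase. Genes for mitosis are read in G2 and M, are switched on together by the factors FOXM1, MYBL2 and NFY, and are kept off in resting cells by a repressor complex that binds a promoter element called CHR. A sample taken at 24 h therefore looks at the late wave.

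**Figure D1:**
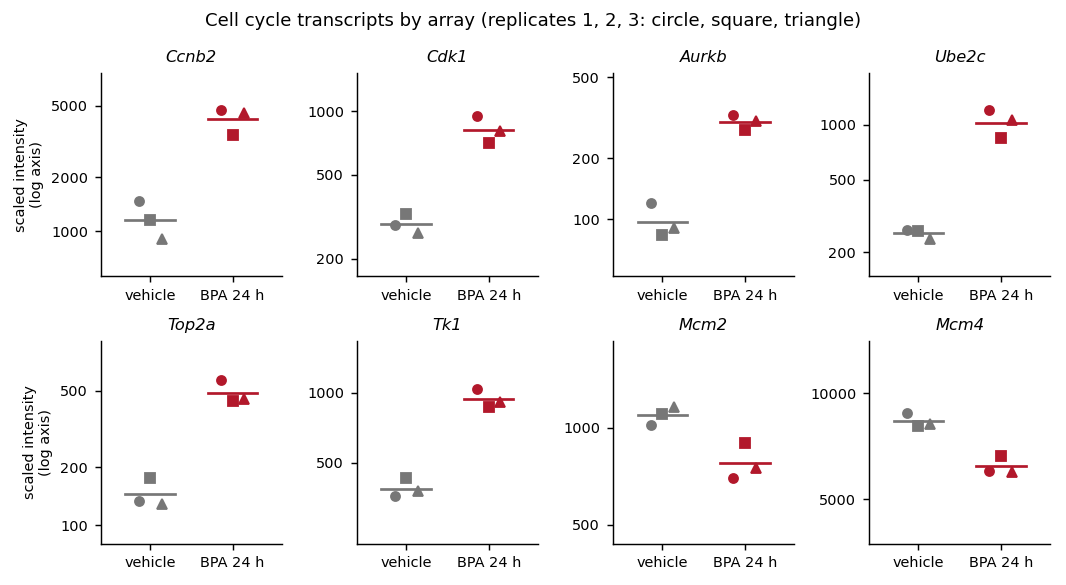
Scaled intensity (log axis, each array's 75th percentile set to 1000) of 8 cell cycle transcripts on 3 vehicle arrays (grey) and 3 BPA 24 h arrays (red). Symbols mark replicates, and bars are group means on the log scale. The first 6 genes lie higher on all BPA arrays, and Mcm2 and Mcm4 lie lower on all of them.

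Values are scaled intensities in arbitrary units, in which the 75th percentile of each array is 1000, given in the order replicate 1, 2 and 3. Changes are log2 differences between group means with their standard error, and adjusted p is from limma over all tested probes. With BPA, 1696 probes were called higher (5.47% of those tested) and 2660 lower (8.57%) at an adjusted p under 0.05. Changes of at least 2-fold were far fewer upward, with 232 probes (0.748%) against 953 downward (3.07%). The median difference of all probes was -0.03.

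The arrays of a group agreed closely, with correlations over the tested probes of 0.985 to 0.994 between vehicle arrays and 0.989 to 0.992 between BPA arrays, and a single array measured 72.7% to 81.4% of its probes clearly over background. Vehicle replicate 1 stood farther from the BPA arrays (0.955 to 0.961) than vehicle replicates 2 and 3 did (0.977 to 0.983). All 26 tested transcripts of maturing sperm cells, which a uterus is not known to make, were lower with BPA (median -3.41) and highest on vehicle replicate 1, and their part in the other results was not tested. Among the probes lower by 2-fold or more, 96.6% were higher on vehicle replicate 1 than on vehicle replicate 3 by more than 0.5, against 21.1% of the probes higher by 2-fold or more and 10.3% of all tested probes. Over all calls the shares were 41.8% of the lower and 3.66% of the higher ones. Without all such probes the counts were 1634 higher and 1547 lower. The 6 arrays lay on 4 slides, of which the one with BPA replicate 3 was scanned on a later day. Slides 3 and 5 each held 1 array of both groups, and with slide as a block 581 probes were called higher and 1081 lower. Without the arrays of the later day 715 were higher and 1329 lower. The total moved from 4356 to 2181 without vehicle replicate 1, to 2057 without BPA replicate 1 and to 2326 without BPA replicate 3. With spike-in probes as the scale, which shifted the median of all probes to -0.16, 120 probes were called higher and 940 lower. With no scaling, where the median was -0.15, the counts were 301 and 2343.

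**Figure D2:**
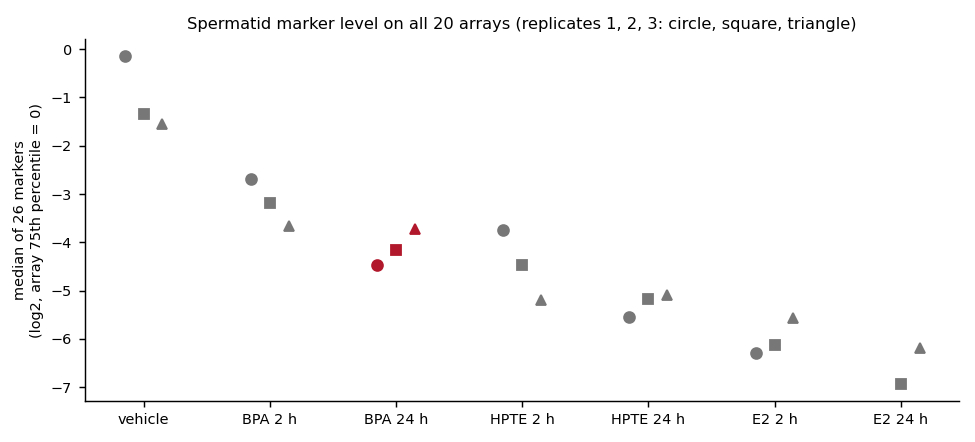
Median log2 level of 26 spermatid markers on each of the 20 arrays, relative to the array's 75th percentile, by group on the x axis, with BPA 24 h in red. The vehicle arrays stand at -0.14, -1.35 and -1.56 and the BPA 24 h arrays at -4.47, -4.16 and -3.72.

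Genes of mitosis rose together. Of 65 tested genes in 3 lists for mitotic entry, chromosome segregation, and anaphase with cytokinesis, 52 were called higher and 2 lower, with a median of 1.38 (2.59-fold). Of all 65, 57 lay higher on every BPA array than on any vehicle array, 61 were higher within slide 3 and 63 within slide 5. All 52 called higher did so on each count. They were chosen by that call, however, and 99.5% of all probes called higher rose within both slides. Of the 52, 43 rose at least 2-fold. With any 1 array left out 48 to 52 of the 65 were called higher, with the slide block 49, and with spike-in scaling 36. Over all tested probes 5.47% were called higher and 17.9% lay higher without overlap.

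The kinases and cyclins that drive cells into mitosis came first (13 of 17 higher, median 1.19). Ccnb2, which encodes cyclin B2 (probe at chr9:70439814-70439873 on mm7), read 1466, 1148 and 900.0 on the vehicle arrays and 4753, 3430.3 and 4582 on the BPA arrays. Every BPA array lay above every vehicle array, and the rise was 1.87 ± 0.22 (SE, n = 3 and 3, adjusted p = 0.00017), or 3.67-fold. Cdk1, the kinase that cyclin B activates, stood at 289, 325 and 265 with vehicle and at 949, 706 and 807 with BPA. Its arrays did not overlap, with a rise of 1.48 ± 0.17 (adjusted p = 0.00014). Ccna2 (cyclin A2) rose by 1.85, Ccnb1 (cyclin B1) by 1.70, and Cdc25c, a phosphatase that activates Cdk1, by 2.04. Foxm1, a transcription factor for these genes, rose by 1.39 ± 0.16, whereas Mybl2 read 0.43 and was not called (adjusted p = 0.10). The kinases Plk1 and Aurka rose by 1.30 and 1.19, and Tpx2, which activates Aurora A on the spindle, by 1.68. Pkmyt1, a kinase that restrains Cdk1, fell by 0.39, a call lost with slide as a block and without vehicle replicate 1, BPA replicate 1 or BPA replicate 3. Cdc25b, a phosphatase of the same family as Cdc25c, read 0.14 and was not called.

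For chromosome segregation 21 of 26 genes rose and none fell. Birc5 (survivin) belongs with Aurkb to the chromosomal passenger complex, which corrects the attachment of chromosomes to the spindle. Its intensities were 1966, 1509.7 and 1383 with vehicle and 6106, 4620.1 and 5551 with BPA, and no BPA array came near a vehicle array (rise 1.75 ± 0.20, adjusted p = 0.00017). Aurkb itself gave 119, 83.8 and 90.6 against 328, 275 and 304, a rise of 1.64 ± 0.19. Cenpf and Cenpe, which link kinetochores to microtubules, rose by 1.92 and 1.71, and Ndc80, the core of the microtubule attachment, by 1.72. Top2a, the topoisomerase that untangles sister chromatids, read 134, 177 and 129 on vehicle arrays and 566, 443 and 453 on BPA arrays. Bub1 and Ttk, kinases of the spindle checkpoint, rose by 1.23 and 1.24. Members not called were Bub3, Mad2l1, Cenpn, Smc2 and Smc4, between 0.11 and 0.43.

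Anaphase and cytokinesis genes had the highest list median, 1.58, with 18 of 22 higher. Ube2c encodes the enzyme that charges the anaphase-promoting complex with ubiquitin (probe at chr2:164513170-164513229, mm7). It read 264, 262 and 237 with vehicle, a narrow range, and 1197, 850.2 and 1056 with BPA. The rise was 2.01 ± 0.20, or 4.03-fold, adjusted p = 7.7e-05. Cdc20, which gives that complex its substrates, rose by 1.47 ± 0.19. Hmmr, a spindle-associated protein, gave the largest change of the 3 lists, 2.20 ± 0.20 (adjusted p = 6.5e-05). The kinesins Kif23, Kif11, Kif4 and Kif20a rose by 1.86, 1.77, 1.69 and 1.67, and Prc1, which bundles the central spindle, by 1.72. Pttg1 (securin) fell by 0.25, a call lost with slide as a block and with any 1 array left out other than vehicle replicate 2. Outside the lists, Mki67, the source of the Ki67 antigen used to score dividing cells, read 331, 433 and 329 with vehicle and 1651, 1304 and 1367 with BPA. It rose by 1.99 ± 0.22 (adjusted p = 0.00014). Aspm, Pimreg and Iqgap3, also linked to cell division, were among the 12 largest increases with a range under 1 within each group, at 2.30, 2.36 and 2.24.

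Promoters are shown for 5 of these genes, because the list members moved together and the elements that mitotic promoters are known to share can be looked for in their letters. The 150 bases before the transcription start are from RefSeq on GRCm38.p6, 5′ to 3′ on the gene's strand, and Mcm2, a replication gene that did not rise, is set beside them. Capitals mark CCAAT, the letters NFY reads, and TTTGAA, the letters of a CHR element, on either strand (the opposite strand reads ATTGG and TTCAAA).
Ccnb2 (chr9:70421555-70421704, minus strand): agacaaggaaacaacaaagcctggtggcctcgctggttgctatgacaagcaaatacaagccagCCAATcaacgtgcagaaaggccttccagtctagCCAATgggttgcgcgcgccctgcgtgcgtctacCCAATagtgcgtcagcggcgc
Cdk1 (chr10:69352913-69353062, minus strand): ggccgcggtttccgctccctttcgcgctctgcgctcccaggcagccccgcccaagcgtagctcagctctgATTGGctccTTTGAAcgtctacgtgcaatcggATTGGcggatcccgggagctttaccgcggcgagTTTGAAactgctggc
Ube2c (chr2:164769779-164769928, plus strand): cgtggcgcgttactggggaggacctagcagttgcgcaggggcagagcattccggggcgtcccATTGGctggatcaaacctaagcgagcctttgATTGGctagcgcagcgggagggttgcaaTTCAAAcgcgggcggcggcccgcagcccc
Cdc20 (chr4:118437344-118437493, minus strand): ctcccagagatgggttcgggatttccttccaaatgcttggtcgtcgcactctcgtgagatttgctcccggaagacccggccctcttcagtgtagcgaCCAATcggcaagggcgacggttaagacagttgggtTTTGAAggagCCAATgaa
Top2a (chr11:99024190-99024339, minus strand): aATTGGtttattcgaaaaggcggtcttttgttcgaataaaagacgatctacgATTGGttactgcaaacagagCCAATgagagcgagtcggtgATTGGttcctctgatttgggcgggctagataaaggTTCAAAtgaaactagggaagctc
Mcm2 (chr6:88898781-88898930, minus strand): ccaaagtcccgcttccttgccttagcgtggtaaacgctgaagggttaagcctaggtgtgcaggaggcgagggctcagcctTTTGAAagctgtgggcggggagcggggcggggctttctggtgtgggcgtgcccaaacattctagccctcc

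In Ccnb2 the CCAAT starts stood at -87, -54 and -21 from the start site, all on the gene's strand. Upstream of the bases shown it held TTTGAA at -167 on the same strand. Cdk1 held 2 within these 150 bases, at -80 and -48 on the opposite strand, and TTTGAA at -71 and -15. Within the bases shown, Ube2c had CCAAT letters at -88 and -57 and the CHR letters at -29. Cdc20 had CCAAT letters at -53 and -8 with TTTGAA at -18. Top2a, again within the bases shown, had them at -149, -98, -78 and -58 with TTTGAA at -23. Mcm2 held TTTGAA at -70 and, upstream of the bases shown, CCAAT letters on the opposite strand at -175. Tk1, a replication gene that rose, was read too and held neither CCAAT nor TTTGAA in its 150 bases, which are not printed. Over 250 bases before the start, 36 of the 52 mitosis genes with a promoter in the table held CCAAT on either strand (69.2%), against 37.5% of 27025 genes with a promoter there. TTTGAA was in 18 of 52 (34.6%), against 18.3%. For DNA replication genes the shares were 57.1% and 14.3% of 35, and the E2F letters TTCCCGCC were in 11.4%, against 2.13% of all. The longer E2F form TTTGGCGC was in 3 of these 35, and the palindromic estrogen response element was in none of 36 estrogen-response promoters and in 0.0666% of all. These are matches of letters, and binding was not measured.

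DNA replication genes did not rise as a group. Of 44 tested, 3 were called higher and 5 lower, close to the shares over all probes, and the median was 0.05. Tk1, thymidine kinase of the nucleotide salvage route, read 360.5, 429.6 and 379 with vehicle and 1041, 867 and 911 with BPA. It was the only member called at 2-fold or more, 1.27 ± 0.21 (adjusted p = 0.0011). E2f2 rose by 0.73 and Cdc45, a helicase subunit, by 0.47, the latter call lost with any 1 array left out other than vehicle replicate 2. Mcm4, of the helicase ring that opens the origin, went the other way, with 8789.9, 8063 and 8177 on vehicle arrays and 6019.8, 6609.7 and 5975 on BPA arrays. All BPA arrays lay below all vehicle arrays, and the fall was 0.43 on the log2 scale (adjusted p = 0.0019). Mcm7 read 9978, 10010.0 and 9830.4 against 7700.1, 8203 and 8016 and fell by 0.32. Mcm2, Gins1 and Gins3 also fell, by 0.49, 0.32 and 0.28, calls lost without BPA replicate 1 or BPA replicate 3, and without vehicle replicate 3 (Mcm2), vehicle replicates 1 or 2 (Gins1) or vehicle replicate 2 (Gins3). Pcna, the polymerase clamp, read -0.07 (interval -0.23 to 0.09) and Mcm6 -0.12 (-0.32 to 0.08), and neither was called. With quantile normalization 7 members were higher and 6 lower, with normexp 9 and 4, and with spike-in scaling none was called in either direction. Without BPA replicate 1 or BPA replicate 3 there were 4 calls in place of 8.

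**Figure D3:**
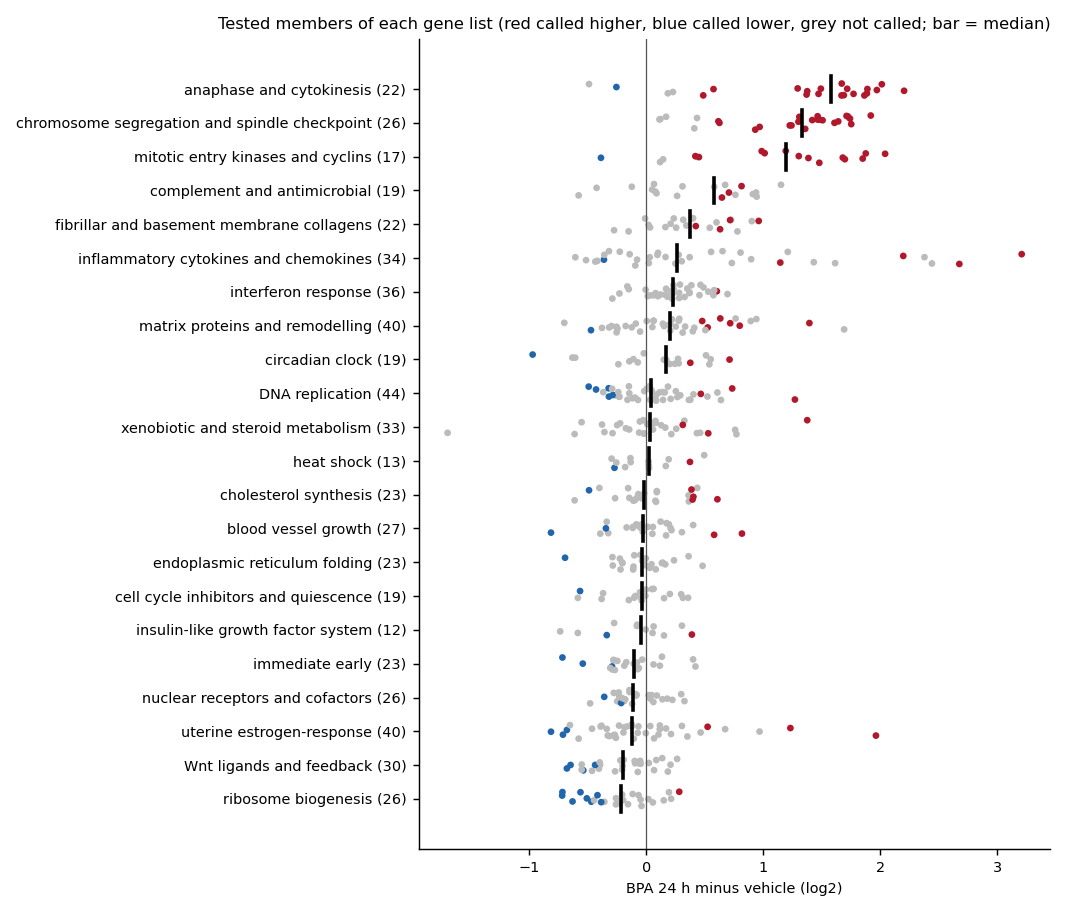
Log2 difference of BPA 24 h minus vehicle for every tested member of 22 gene lists, 1 probe per gene, with the number tested in parentheses. Red points were called higher, blue lower and grey not called, and black bars are medians. The 3 mitosis lists stand at medians of 1.19 to 1.58, and DNA replication stands at 0.05.

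Inhibitors of the cell cycle showed 1 call among 19, a lower one (5.26%, against 8.57% of all probes). Cdkn1c (p57), an inhibitor found in resting stroma, read 25956, 24367 and 20614 on the vehicle arrays and 16756, 16643 and 14441 on the BPA arrays. It fell by 0.56 (adjusted p = 0.008) with no overlap, a call lost with the slide block. Cdkn1a (p21) read -0.10 (interval -0.78 to 0.57), Cdkn1b (p27) -0.15 and Trp53inp1 0.31, none called.

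Among genes that build ribosomes more fell than rose. Of 26 tested, 8 fell (30.8%, against 8.57% of all probes) and 1, Polr1c, rose (0.28), with a median of -0.22. Ddx21, a helicase of the nucleolus, gave 1231, 1079.9 and 1070.1 with vehicle and 638, 771 and 649 with BPA. The groups were well apart, and the fall was 0.72 (adjusted p = 0.00027). Myc, the transcription factor that drives this program, read 2965, 2417 and 2451 against 1435, 1803 and 1533 and fell by 0.72 (adjusted p = 0.04), although leaving out any 1 array other than BPA replicate 2 ended the call. Rrs1, Nop56, Ppan and Nop58, all of ribosome assembly, fell by 0.63, 0.56, 0.51 and 0.47, and Gnl3 and Polr1a by 0.42 and 0.38. The nucleolar proteins Npm1, Ncl and Fbl read 0.19, 0.21 and -0.16 and were not called. Leaving out 1 array gave 6 to 9 members lower, and spike-in scaling none.

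Among 23 immediate early genes none rose and 3 fell: Myc, Maff by 0.54 and Egr1 by 0.29. Without vehicle replicate 1, BPA replicate 1 or BPA replicate 3 none of the 23 was called. Fos read -0.28, adjusted p = 0.55, Nr4a1 0.13, adjusted p = 0.41 and Junb -0.06, and Nr4a3 was not well above background on any of the 6 arrays. Wnt ligands and their feedback genes gave 4 calls of 30, all lower (13.3%, against 8.57% of all probes), with a median of -0.20, and 1 to 3 calls with 1 array left out. Wnt4, a ligand that follows estrogen and serves stromal differentiation, read 1147, 1178 and 1371 with vehicle and 682, 775 and 856 with BPA. The fall was 0.68 (adjusted p = 0.022) without overlap, and the call was lost without vehicle replicate 3 or BPA replicate 1. Axin2, Lef1 and Nkd1, targets of Wnt signalling, fell by 0.65, 0.54 and 0.44. Axin2 was called with each array left out in turn, Lef1 only without BPA replicate 2, and Nkd1 only without vehicle replicate 2 or BPA replicate 3. At 2 h after BPA the difference from the same vehicle arrays had been 2.86 for Wnt4, 2.23 for Egr1, 2.19 for Maff and 0.83 for Axin2.

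Within a list of 45 genes that estrogen is known to change in the uterus, 40 were tested, and 3 rose and 3 fell, near the shares over all probes. Muc1, a mucin of the luminal surface, read 62.4, 108 and 129 with vehicle and 219.8, 208 and 245 with BPA, higher on all BPA arrays (1.23 ± 0.34, adjusted p = 0.026). Spp1 (osteopontin) overlapped between groups, at 566, 1366 and 1630.1 against 6222, 1267 and 9446, since BPA replicate 2 lay within the vehicle range. Its fitted rise was 1.96 ± 0.61 (adjusted p = 0.045), and within slides 3 and 5 it was -0.11 and 1.93. Padi4, a deiminase, rose by 0.52. Its call was lost with any 1 array left out other than BPA replicate 2. Vegfa, the growth factor for vessels, read 2957, 3526 and 3032 with vehicle and 1568, 2061 and 1803 with BPA. All BPA arrays were lower, by 0.81 on average (adjusted p = 0.011). Ccnd1 (cyclin D1) fell by 0.71, from 3329.9, 4298 and 4021 to 2144, 2955 and 2070.1. Without BPA replicate 1 none of the list was called, and without vehicle replicate 1 or BPA replicate 3 none was called higher. C3 and Sprr2a1, both classic targets in the epithelium, read 0.67, adjusted p = 0.13, and -0.12, adjusted p = 0.43, and Ltf (lactoferrin) read -0.58 (interval -1.52 to 0.37). Areg was not well above background on any array, and Lif had no probe matched.

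Receptors showed little. Of 26 nuclear receptors and cofactors, Rarb fell by 0.36 and Ncoa1 by 0.21 and none rose, a share lower of 7.69% against 8.57% of all probes. With any 1 array left out 0 or 1 of the 26 was called. Esr1, the estrogen receptor itself, read -0.48 ± 0.19 (adjusted p = 0.11), and Pgr, the progesterone receptor, 0.03 (interval -0.16 to 0.23). Esr2 was not well above background on any of the 6 arrays. In the insulin-like growth factor system, Igfbp7, a secreted binding protein, read 90010.0, 85916 and 89415 with vehicle and 115920.0, 115010.0 and 116690.0 with BPA. Its rise was small, 0.39 (adjusted p = 0.0031), and the arrays of each group lay close together. Insr, the insulin receptor, fell by 0.34, a call lost without vehicle replicates 2 or 3 or BPA replicates 1 or 3, while Igf1 read 0.31 (interval -0.07 to 0.69) and was not called.

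**Figure D4:**
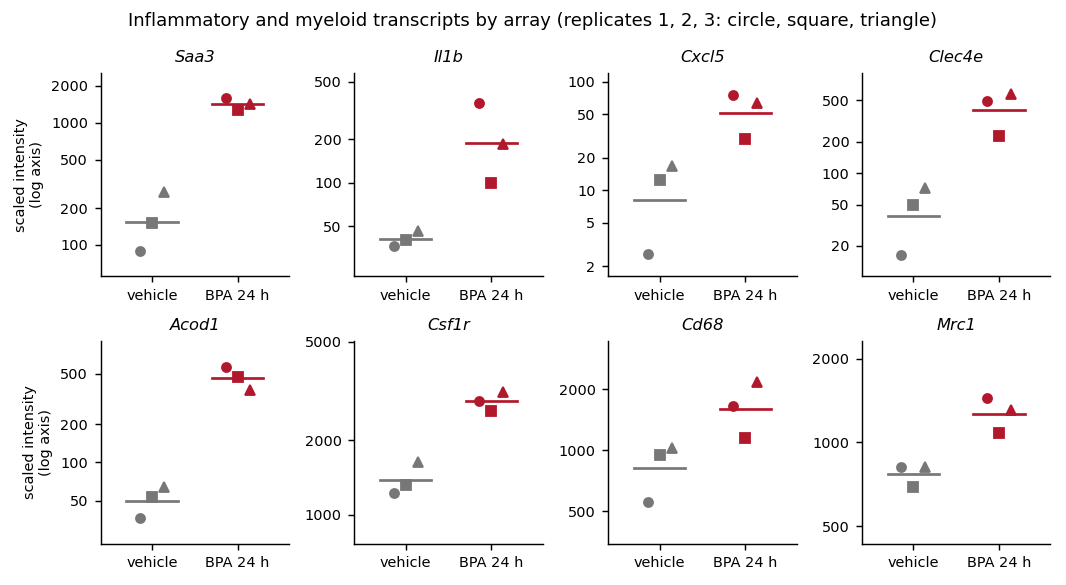
Scaled intensity (log axis, 75th percentile of each array set to 1000) of 8 inflammatory and myeloid transcripts on 3 vehicle arrays (grey) and 3 BPA 24 h arrays (red). Symbols mark replicates, and bars are group means on the log scale. All 8 lie higher on every BPA array, with wide spread in Clec4e, Cxcl5 and Il1b.

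Among the largest increases were genes of inflammation and of myeloid cells. Acod1, which makes itaconate in activated macrophages, read 36.6, 53.2 and 63.9 with vehicle and 567, 476 and 373 with BPA, the largest rise among genes with a range under 1 within each group (3.22 ± 0.78, adjusted p = 0.013). Saa3, an acute phase protein, gave 89.3, 152 and 269 against 1589, 1273 and 1420.0, all BPA arrays far above the vehicle arrays. The rise was 3.21 ± 0.91, or 9.23-fold (adjusted p = 0.029). Il1b, the cytokine, stood at 36.3, 40.4 and 46.7 with vehicle, a narrow range, and at 357, 99.7 and 185 with BPA, a wide one (2.20 ± 0.68, adjusted p = 0.043). Clec4e, a receptor for microbial and dead-cell lipids, read 16.5, 49.2 and 71.7 against 499, 228 and 570.1, 3.37 ± 1.04. Cxcl5 and Cxcl1, which draw neutrophils, rose by 2.67 and 1.15, and Cxcr2, their receptor, was well above background on all BPA arrays and on no vehicle array, at least 2.38-fold higher, a call lost with any 1 array left out other than vehicle replicate 3. Gpr84, a receptor of activated myeloid cells, was at least 2.36-fold higher on the same terms (adjusted p = 0.0064) and kept its call in every alternative that held it. The alternative that required signal above background on every array of both groups left it out. Cxcl12, made by stroma, fell by 0.36 (adjusted p = 0.0035).

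In the list of 34 tested cytokines and chemokines these calls were 4 higher and 1 lower (11.8% and 2.94%, against 5.47% and 8.57% of all probes). Without vehicle replicate 1, without vehicle replicate 2, without BPA replicate 1 or without BPA replicate 3 none of the 34 stayed called higher, without vehicle replicate 3 there were 2, and without BPA replicate 2 there were 5. Acod1 lost its call without vehicle replicate 1 or BPA replicate 1. Members not called included Il1rn at 2.38, adjusted p = 0.086, Ccl9 at 1.61 and Tnf at 0.81.

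Macrophage markers leaned the same way, with 5 of 18 called higher (27.8%, against 5.47% of all probes), all 18 above 0 and a median of 1.02. Of the 18, 15 lay higher on every BPA array than on any vehicle array, where 17.9% of all probes did. Csf1r, the receptor that keeps macrophages alive, read 1221, 1319 and 1629 with vehicle and 2881, 2618 and 3142 with BPA. Mrc1, a mannose receptor, gave 819, 692 and 814 against 1446, 1077 and 1306, and the groups of both genes were apart (1.06 and 0.71, adjusted p = 0.02 and 0.0083). Cd68 and Fcgr1 rose by 0.98 and 0.82, whereas Adgre1 (F4/80) read 1.12, adjusted p = 0.32. The summed intensity of the 18 was 102330 to 114320 on vehicle arrays and 168730 to 177920 on BPA arrays. The 5 calls became 2 without vehicle replicate 1, 1 without vehicle replicate 2 or BPA replicate 3, and 0 without BPA replicate 1. Neutrophil markers had a median of 0.99 with 2 of 12 called higher (16.7%, against 5.47% of all probes), Cxcr2 and Hdc (0.79). S100a8 and S100a9, the most abundant neutrophil proteins, read 1.32, adjusted p = 0.32, and 1.49, adjusted p = 0.26. Alox15 (1.08) was the 1 eosinophil marker of 7 called (14.3%, against 5.47% of all probes), and Epx was not well above background on any array. Without vehicle replicate 1 or BPA replicate 1 neither Hdc nor Alox15 was called, nor was Hdc without BPA replicate 2 or Alox15 without BPA replicate 3.

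Among named genes called without overlap between groups, the largest increase was at a probe for Ighm, the heavy chain of IgM. It read 470.1, 431 and 1379.6 with vehicle and 6064, 33778 and 5836 with BPA. BPA replicate 2 stood several times above the other BPA arrays (rise 4.02 ± 1.25, adjusted p = 0.044), a call lost with any 1 array left out other than vehicle replicate 3, and another probe of the same gene read 1.19, adjusted p = 0.18. Glycam1, the L-selectin ligand of lymph node vessels, was well above background on the 3 BPA arrays and no vehicle array, with 34.8, 80.6 and 38.8 on the former, at least 5.83-fold higher (adjusted p = 0.014). Of 14 B cell markers none was called, although the median was 0.95, and their summed intensity was 6680 to 10198 on vehicle arrays and 17368, 40792 and 17552 on the BPA arrays. T cell markers stood at a median of -0.01 with 1 of 17 called, Lef1, lower (5.88%, against 8.57% of all probes). Natural killer markers stood at 0.12 with Nkg7 the 1 call of 11, higher (9.09%, against 5.47% of all probes). Nkg7 rose by 0.47, a call lost without vehicle replicate 1. The lymph node list had a median of 0.62 and 1 of 10 called higher (10.0%, against 5.47% of all probes). That was Glycam1, which lost its call without vehicle replicate 2. The part of lymphoid tissue in these values was not tested.

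The complement and antimicrobial list gave 3 calls of 19, all higher (15.8%, against 5.47% of all probes), with a median of 0.58. Cfi, which cleaves C3b, read 878, 803 and 911 with vehicle and 1424, 1199 and 1443 with BPA, apart by 0.65 ± 0.12 (adjusted p = 0.0019). Cfb rose by 0.81 and Pigr, which carries IgA across the epithelium, by 0.71. Without vehicle replicate 1 or BPA replicate 3 neither of these 2 was called, and Cfb was lost without vehicle replicate 2 or BPA replicate 1 too. Lyz2 and Wfdc2 read 0.58 and 0.09 and were not called. Of 36 interferon genes, Oas1a rose (0.60, adjusted p = 0.0499), 2.78% of the list against 5.47% of all probes. Its call was lost with any 1 array left out other than vehicle replicate 3, and the other genes lay between -0.29 and 0.69.

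Some matrix genes rose. Of 22 collagens 4 rose (18.2%, against 5.47% of all probes) and none fell (median 0.37). Col1a2, of fibrillar collagen I, read 48167, 53066 and 53518 with vehicle and 120420.0, 68333 and 122540.0 with BPA, where replicate 2 stood nearest the vehicle arrays (0.96 ± 0.23, adjusted p = 0.012). Col1a1 and Col3a1 read 0.90 and 0.72 and were not called. Of 40 other matrix genes 6 rose and Mmp10, a protease, fell by 0.47. Bgn (biglycan) gave 382, 569 and 815 against 1763, 1059 and 1720.4, a rise of 1.39 ± 0.30 (adjusted p = 0.0061). Fn1, Sparc, Adamts2, Lum and Fbln2 rose by 0.80, 0.72, 0.63, 0.52 and 0.48. Timp1 read 1.69, adjusted p = 0.055. None of these matrix calls stayed with slide as a block, and the collagen calls were 0 without BPA replicate 1 or BPA replicate 3, 2 without vehicle replicate 2, 7 without vehicle replicate 3 and 10 without BPA replicate 2. The other matrix calls were 1 without vehicle replicate 1 or BPA replicate 3, 2 without BPA replicate 1 and 3 without vehicle replicate 2.

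Uterine tissue showed its markers, since all 15 epithelial, 13 stromal and 12 myometrial markers on the lists were tested. In the epithelium Krt8 rose from 18418, 22122 and 20559 to 30446, 29775 and 32234 (0.60, adjusted p = 0.0094) and Krt19 by 0.35, with a list median of 0.29. Both calls were lost without vehicle replicate 1, and Krt19 also without BPA replicate 1 or BPA replicate 3. Vim, the intermediate filament of stroma, read 30446, 30632 and 30912 with vehicle, nearly constant, and 54411, 43124 and 47185 with BPA (0.65 ± 0.11, adjusted p = 0.0017). Lum and Mme also rose in the stromal list, calls lost without vehicle replicate 1, BPA replicate 1 or BPA replicate 3, and without vehicle replicate 2 (Lum) or 3 (Mme). Myh11, Actg2 and Tpm2 of smooth muscle rose by 0.63, 0.53 and 0.45, calls lost without vehicle replicate 1, BPA replicate 1 or BPA replicate 3 and, for Actg2, without vehicle replicate 2. Of 17 endothelial markers 4 rose (23.5%, against 5.47% of all probes): Tie1, Pecam1, Eng and Emcn, by 0.58, 0.57, 0.47 and 0.36. Aplnr, the apelin receptor of sprouting vessels, rose by 0.82 ± 0.14 (adjusted p = 0.0013). Tie1 and Pecam1 lost their calls without vehicle replicate 1, and Pecam1 without BPA replicate 1. Edn1 (endothelin) fell by 0.34, a call lost without vehicle replicates 1 or 3 or BPA replicates 1 or 3. Mesothelial markers gave no call (7 tested, median -0.29), nor did mast cell markers (8 tested, median 0.32).

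Metabolic lists held few calls. Of 23 cholesterol synthesis genes 4 rose (17.4%, against 5.47% of all probes) and 1 fell, with a median of -0.02. Mvd, an enzyme of the mevalonate route, read 254, 311 and 341 with vehicle and 477, 433 and 463 with BPA (0.61 ± 0.13, adjusted p = 0.0066). Ebp, Pmvk and Tm7sf2 rose by 0.40, 0.40 and 0.39. Tm7sf2 lost its call with any 1 array left out and Pmvk without BPA replicate 1. Lss (lanosterol synthase) fell by 0.49 on the probe used for it, while the mean over its probes was 0.13, so its direction is unsettled. Among 33 genes of xenobiotic and steroid metabolism, Hmox1 (heme oxygenase) read 476, 621 and 760.4 with vehicle and 1996, 869 and 2262 with BPA, lowest on replicate 2 (1.38 ± 0.35, adjusted p = 0.016). Gstt1 and the transporter Abcg2 rose by 0.53 and 0.31. Sult1e1, the estrogen sulfotransferase, read -1.70, adjusted p = 0.054, and Cyp1a1, the usual marker of aryl hydrocarbon receptor activity, 0.76, adjusted p = 0.41. None of the 33 was called without vehicle replicate 1 or BPA replicate 1, and 1 was without BPA replicate 3. Of 23 folding factors of the endoplasmic reticulum Hyou1 fell by 0.69, a call lost without vehicle replicates 1 or 3, without BPA replicates 1 or 3 and with slide as a block. Of 13 heat shock genes Hsp90ab1 rose by 0.37 while Hsp90aa1 fell by 0.27, the latter lost without vehicle replicates 1 or 2 or BPA replicates 1 or 3.

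The circadian list gave 3 calls of 19, with 10.5% higher and 5.26% lower, against 5.47% and 8.57% of all probes. Arntl (Bmal1), the activator at the core of the clock, read 712, 912 and 968 with vehicle and 428, 443 and 441 with BPA. The BPA arrays were nearly equal and all below vehicle, by 0.97 (adjusted p = 0.00027), and the call held in every alternative. Per3, a repressor in the same loop, read 209, 245 and 236 against 374, 369 and 384, higher by 0.71, a call lost with any 1 array left out, and Tef rose by 0.38, lost with any 1 array left out other than vehicle replicate 3. Npas2, a partner of Arntl, read -0.63, adjusted p = 0.053, and Dbp, an output gene, 0.51, adjusted p = 0.13.

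A list of 22 transcripts was taken from the study, so its direction is not independent evidence. Here 5 rose, Ube2c, Ccnb2, Aurkb, Cdk1 and Mvp, and Wnt4 fell. These were 22.7% higher and 4.55% lower, against 5.47% and 8.57% of all probes. Mvp (major vault protein) read 2324, 2933 and 3324 with vehicle and 3809.5, 3522 and 4214 with BPA, higher by 0.44 ± 0.13 (adjusted p = 0.034), with within-slide differences of 0.26 and 0.20. The call was lost with slide as a block, with normexp and without vehicle replicates 1 or 2 or BPA replicates 1 or 3. The other 16 lay between -0.65 and 0.41.

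Among the largest decreases were transcripts of the testis. Prm1, a protamine that packs sperm DNA, read 53352, 16872 and 15844 on the vehicle arrays and 1549, 2132 and 2818 on the BPA arrays. Tnp1, a transition protein, read 15808, 5517 and 5191 against 522, 566 and 839. In both, vehicle replicate 1 stood well above the other vehicle arrays, and the falls were 3.53 and 3.61. The summed intensity of the 26 markers was 146980, 49510 and 44095 on the vehicle arrays and 5838, 7067 and 9609 on the BPA arrays. All 26 were highest on vehicle replicate 1, and all 26 were also called lower without it. The fall was not particular to BPA 24 h. Against the same vehicle arrays the median of the 26 was -2.44 at 2 h after BPA, -4.73 with HPTE 24 h and -5.56 with E2 24 h. Cst8, shared by testis and epididymis, fell by 3.73, while the seminal vesicle gene Svs4 and the epididymal genes Crisp1, Lcn5 and Gpx5 were not well above background on any array. Most of the 12 largest decreases by the naming rule were of probes that no BPA array measured above background, so only bounds are given: Slco6c1, a transporter of the testis, was at least 5.37-fold lower, Spdye4b at least 5.36-fold and Trp53tg5 at least 12.2-fold. With a range under 1 within each group, Ccdc185 was at least 5.75-fold lower and Ankmy1 at least 2.38-fold, while Tuba8 (-1.90), Spata31d1a (-1.81) and Spata32 (-1.59) were measured on all 6 arrays. Of all tested probes, 1375 passed the filter through the vehicle arrays alone, 424 of them called lower, and 385 through the BPA arrays alone, 50 of them called higher. For such probes the filter itself favours that direction.

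Markers of other tissues gave few calls. Alb and Fgb of liver read -3.90, adjusted p = 0.064, and -2.67, adjusted p = 0.081, and no liver, exocrine pancreas or adipocyte marker was called. Slc4a1 and Klf1 of red cells fell by 1.53 and 0.88, Mb of muscle by 0.49, and Ovgp1 of the oviduct by 0.56. Mb lost its call with any 1 array left out, Slc4a1 without vehicle replicates 1 or 2 or BPA replicates 1 or 3, and Ovgp1 without vehicle replicates 1 or 2 or BPA replicate 3, while Klf1 was called with each array left out.

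HPTE, the active metabolite of methoxychlor, shares the paired phenols of BPA but has a trichloromethyl group and a hydrogen on the central carbon in place of methyl groups. It was given at the same dose (750 µg) and time, so the pair was compared directly, as the 1 pair with matched dose at 24 h. HPTE 24 h arrays exceeded BPA 24 h arrays at 1018 probes (3.28%) and were lower at 397 (1.28%), 4.56% of those tested in all. The mitosis genes were higher with HPTE by a median of 0.71, with 40 of 65 called higher and none lower. Within slides 5 and 6, which held both groups, the medians were 0.53 and 0.79. Ccnb2 was higher with HPTE by 1.04 (± 0.22, SE, adjusted p = 0.018) and Ube2c by 0.93 (0.51 to 1.35). In cholesterol synthesis 16 of 23 genes were higher with HPTE, with a median of 0.69, among them Mvd at 0.996 (0.72 to 1.27, adjusted p = 0.0046). Among replication genes 18 of 44 were higher with HPTE (median 0.40). For Csf1r the difference was -0.63 (-1.23 to -0.04) and for Il1b -1.70 (-3.14 to -0.25), neither called (adjusted p = 0.20 and 0.16), although both intervals lie below 0. The count of 1415 moved strongly: 11 probes were called with slide as a block, 81 without HPTE replicate 2 and 28 without BPA replicate 2. Leaving out any other array of the pair gave 562 to 795.

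**Figure D5:**
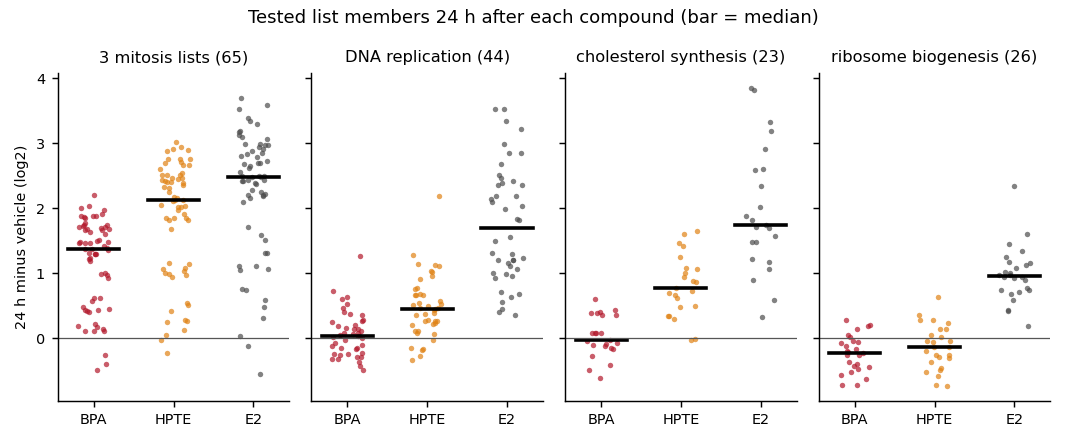
Log2 difference from vehicle at 24 h of every tested member of the 3 mitosis lists, DNA replication, cholesterol synthesis and ribosome biogenesis, for BPA, HPTE and E2, with black bars at the medians. All comparisons share the 3 vehicle arrays. The mitosis medians were 1.38, 2.12 and 2.48, and the ribosome biogenesis medians -0.22, -0.13 and 0.96.

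E2 was given at 250 ng, another dose, and its 2 arrays at 24 h are set side by side with the same vehicle arrays. For mitosis genes the medians were 1.38 with BPA, 2.12 with HPTE and 2.48 with E2, for DNA replication 0.05, 0.46 and 1.69, for cholesterol synthesis -0.02, 0.78 and 1.74, and for ribosome biogenesis -0.22, -0.13 and 0.96. Of the 44 replication genes 3 were called higher with BPA, 28 with HPTE and 44 with E2, where the shares of all tested probes were 5.47%, 15.6% and 26.8%. Mcm2 read -0.49, -0.34 and 2.09, and Ddx21 -0.72, -0.73 and 0.98. Macrophage markers ran in another order, with medians of 1.02, 0.58 and -0.44. Directly, E2 24 h and BPA 24 h arrays differed at 18501 probes (59.6%), 7794 higher (25.1%) and 10707 lower (34.5%) with E2.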

How the data were processed

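Uterine RNA from 20 mice was measured on 1-colour arrays (Cy3), 1 uterus per array. The authors scanned the arrays and deposited the intensity of each spot from Agilent Feature Extraction 9.5 (9.5.3.1 per the file headers), with background subtracted and detrended within the array and no scaling between arrays, and with flags, a column of another kind (other), for spots well above background. Samples were grouped by their titles.

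Controls and outlying spots were left out, spots of a probe were averaged, and log2 intensity minus the array's 75th percentile was fitted with limma 3.58.1 (R 4.3.3) as a means model over 7 groups. P-values were adjusted by Benjamini-Hochberg over 31031 probes and called under 0.05. On simulated data 92 of 100 probes changed by 2 on the log2 scale and 79 of 100 changed by 1 were called, with 8 unchanged ones. The simulated noise was independent for each probe and array, with no slide, scan day or shared array effect. These counts therefore do not measure the error rate in the real arrays. A single uterus per array was taken as 1 mouse, and 3 arrays a group limit the precision.

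Lists used 1 probe per gene, the one with the highest mean signal. Named genes were the study's 22 transcripts, the 12 largest changes in each direction without overlap between groups, the same among probes with a range under 1 within each group, and, per list, up to 6 called members in each direction and 3 with the highest signal. Some items that this rule names are not reported here. Others in the text were chosen after their values were seen. The members and lists were chosen with earlier results of these data known. A fold written as at least N sets the brighter group against the lowest signal well above background. Promoters were from RefSeq (GRCm38.p6), and probe positions are those of the files (mm7). Alternatives covered background correction, scaling, the filter, the groups fitted, slide, scan day, replicate number, array weights, the call rule and each array left out.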

Additional observations from a re-analysis of the deposited data

Results flagged for a closer look

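The difference between HPTE 24 h and BPA 24 h was tested for each named gene, and those given here differed at an adjusted p under 0.05 in limma over all tested probes. Values are HPTE minus BPA on the log2 scale, so positive values are higher with HPTE. With slide as a block 11 probes were called in this contrast over the whole array.

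Of the genes linked to cell division, Ccnb2 differed by 1.04, Cdc25c by 1.04, Birc5 by 1.01, Cenpe by 0.99, Cenpf by 0.96, Ccnb1 by 0.94, Cep55 by 0.93, Ube2c by 0.93, Iqgap3 by 0.91, Ckap2 by 0.82, Nusap1 by 0.79, Aurkb by 0.78, Tpx2 by 0.71, Cdk1 by 0.69 and Ndc80 by 0.69. All of these were also higher with BPA than with vehicle. For Cdc25c and Ccnb1 the probes are others than in the mitosis lists, with rises over vehicle of 2.57 and 2.17. No vehicle array measured that Cdc25c probe well above background, so its rise is a fitted difference and no bound. In DNA replication Tk1 differed by 0.93 and Gins1 by 0.55.

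In cholesterol synthesis Mvd differed by 0.996, Lss by 0.48, Pmvk by 0.47 and Ebp by 0.29. Padi4 differed by 0.61, Tpm2 by 0.48, Cfi by 0.46, Nop56 by 0.44, Rarb by 0.40, Hsp90ab1 by 0.36 and Polr1c by 0.35.

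Lower with HPTE were Cxcr2, by -2.80, and Mmp10, by -0.65. The value of Cxcr2 is a fitted difference and no bound, since no vehicle array measured it above background and its level with HPTE was fitted below that of vehicle.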

How the results depend on the processing

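For BPA 24 h against vehicle, 4356 probes were called. The count was 2644 with no scaling, 1060 with spike-in scaling, 2546 with only these groups fitted, 1662 with slide as a block, 2044 without the later scan day, 8837 with array weights, 1185 with 2-fold added and 984 at an unadjusted p under 0.001 with 2-fold. Leaving out 1 array gave 2057 to 4388. The share of calls that were higher was 38.9%, and 11.4% with no scaling or 11.3% with spike-in scaling. For HPTE 24 h against BPA 24 h (1415), the counts were 920 with quantile normalization, 19 with no scaling, 785 with no filter, 11 with slide as a block, 5 without the later day and 5182 with array weights, and 28 to 795 with 1 array left out. They were 0 with spike-in scaling (2123 at an unadjusted p under 0.05) and 0 with only these groups fitted (8571), both in limma. E2 24 h against BPA 24 h gave 18501 and, with spike-in scaling, 8364.

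Of the DNA replication genes 8 were called, and 13 with normexp, 13 with quantile normalization, 2 with no scaling, 0 with spike-in scaling, 3 with slide as a block, 4 without the later day, 21 with array weights, 1 with 2-fold added and 1 at an unadjusted p under 0.001 with 2-fold, with 4 to 8 when 1 array was left out. Of the inflammatory genes 5 were called, and 8 with normexp, 2 with no scaling, 1 with spike-in scaling, 2 with no filter, 2 with slide as a block, 1 without the later day, 17 with array weights and 0 at an unadjusted p under 0.001 with 2-fold, with 1 to 8 when 1 array was left out. The mitosis genes gave 36 to 58 calls over the alternatives. Without probes higher on vehicle replicate 1 than on replicate 3 by over 0.5, an alternative chosen after seeing the data, 0 of the 26 spermatid markers remained by construction. Lss turned from -0.49 to 0.13 with the mean of its probes. Apart from these constructions, the cause was not tested.

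Replicate numbers did not pair the arrays, since deviations of same-numbered vehicle and BPA arrays correlated at -0.20, -0.16 and -0.18. With the number as a replicate block the counts were 4009, 975 and 18047. Of 157 named genes called, 57 were called under every alternative that held them and 81 with each array left out in turn. The filter for signal above background on every array of both groups held 132 of the 157. Where no array of a group measured a probe above background, the fitted difference is no bound.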
